A study of Bos taurus with 8 samples.

Results

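The 10 genes described here, CD14, VCAN, MRC1, C1QA, C1QB, C1QC, CSF1R, CD68, CD36 and MSR1, are known from monocytes and macrophages, and were followed in bovine peripheral blood granulocytes. Their probes were found by symbol among the 15208 probes of the array, of which 7135 carried a symbol, for 6796 genes in all. A probe was found for 9 of the 10 genes, and VCAN had 2, which gave 10 probes. CSF1R, the receptor for macrophage colony-stimulating factor, matched no probe and is not analysed here. A probe was tested if the scanner software marked it well above background on 4 or more of the 8 arrays, which held for 9 of the 10 probes (8 genes) and for 10459 probes in all.

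Granulocytes came from 4 cows of Bos taurus, each sampled at both times. The first group was taken before embryo transfer, on day 7 of the oestrous cycle, in cows that were not pregnant (4 arrays). The second was taken on day 21 from the same cows, then pregnant by embryo transfer (4 arrays). The sources used here give no breed, age or treatment other than the transfer. All cows were sampled in the same order and there was no group without transfer, so pregnancy, transfer, day and calendar time cannot be told apart. Cows are the replicates, and 4 arrays per group limit the precision.

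Monocytes circulate in blood and become macrophages in tissue, where they take up microbes, dying cells and modified lipoproteins through scavenger and lectin receptors. CD14 holds bacterial lipopolysaccharide and hands it to the TLR4 and LY96 complex, and the C1q chains form the recognition part of the first complement component. Granulocyte preparations are made up mainly of neutrophils, which carry CD14 themselves at a lower level than monocytes. In a bulk sample, a change in the number of cells of a type and a change in RNA per cell cannot be told apart.

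Each probe was a 60-base oligonucleotide. Bases 31 to 60, 5′ to 3′, are shown for the probes whose profiles are compared below, with the hexamer AATAAA, the usual polyadenylation signal, in capitals.
CD14: tgccctggctccgggagaccctcgccagga
VCAN, brighter probe: cctaaaatggcatacacatgttttcatcat
VCAN, dimmer probe: gaagcatacataAATAAAtgaagtaagctc
C1QB: ccctaaatgattgaatAATAAAtgacctct
C1QC: cacaAATAAAtaactaaatcaacagcgcca
MSR1: gtaaacgcacatgtaaaaacaaagtttcga

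Searched on the strand of the probe, the hexamer was present in 3 of the 10 member probes, those of C1QB and C1QC and the dimmer probe of VCAN, and in 11.3% of all 15208 probes. On the opposite strand it was present in the CD68 probe and in 4.14% of all probes. The 2 VCAN probes share the gene symbol but not the sequence, and their guanine and cytosine content was 45% (brighter) and 35% (dimmer). The CD14 probe had the highest content of the set, 60%. A match is a description of these letters, and where the probes lie in their transcripts was not analysed here.

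The arrays had median processed signals of 49.1 to 186.9 intensity units, and 56.8% to 74.9% of all probes were well above background. Of the 4 slides, slide 1 carried cow 1 on both days and cow 2 on day 7, slide 2 cow 2 on day 21 alone, slide 3 cow 3 and slide 4 cow 4, both on both days. The day 7 array of cow 4 had the highest SD of background-subtracted negative controls, 6.50 against 1.94 to 2.85 on the others, and the day 21 array of cow 2 had 129 outlier spots against at most 12. None of these outlier spots was a member probe. Of 16 tested neutrophil genes 13 were well above background on all 8 arrays, among them S100A8, S100A12, CXCR1 and MMP9. PGLYRP1, MPO and CAMP were so on 7, 6 and 4 arrays. Of all 10459 tested probes 8095 were so on all 8, and the count of neutrophil genes therefore does not by itself bear out the label. S100A8 and S100A12 were bright, with means of 5.67 and 6.67 on day 7 (log2 signal relative to the array's 75th percentile). In cow 1, however, the log2 change from day 7 to day 21 was -8.44 for CXCR1 and -3.71 for MMP9, while both were higher on day 21 in the other cows. Of 10 tested T cell genes 9 were well above background on all arrays, a count to be read beside the same one over all tested probes. CD4 had a probe too dim to test.

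The comparison asked how the transcripts of these genes differ between pregnant cows at the time the embryo signals to the mother and the same cows in the cycle before transfer. CD14 was 3.01-fold higher on day 21, the largest change of the 9 tested probes, and the brighter VCAN probe was 1.80-fold and MRC1 1.92-fold higher, each in 4 of 4 cows. In the main fit, which has no cow block, C1QC, C1QB, C1QA and MSR1 had positive changes that were smaller than or close to their errors. CD68 had a negative change. With limma, 0 of the 9 probes passed at an adjusted p under 0.05, higher or lower, and the share of all tested probes that passed was 0%. At an unadjusted p under 0.05, 2 of the 9, CD14 and the brighter VCAN probe, were higher and 0 were lower, against 4.92% and 4.55% of all tested probes.

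**Figure D1:**
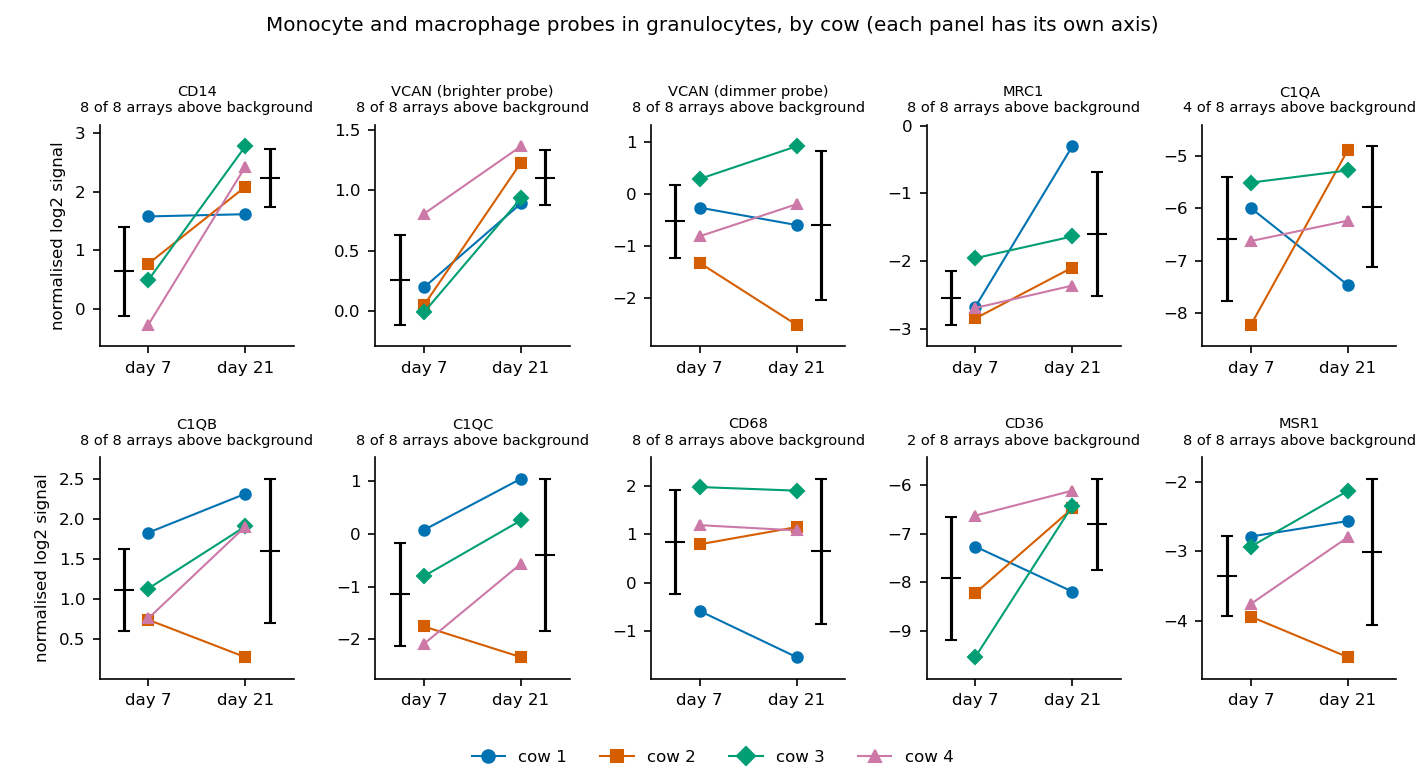
Normalised log2 signal (vertical axis, 0 being the array's 75th percentile) of the 10 probes on day 7 and day 21, with 1 line per cow and black bars for the mean ± SD of 4 arrays; each panel has its own axis. The CD14 and the brighter VCAN panels are those in which every day 21 value lies above every day 7 value.

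CD14, the co-receptor for bacterial lipopolysaccharide, is given on the normalised scale, log2 signal relative to the array's 75th percentile. Its values on day 7 were 1.58, 0.77, 0.49 and -0.28 in cows 1 to 4. On day 21 they were 1.62, 2.08, 2.78 and 2.43. All day 21 values were above all day 7 values, though cow 1 on day 7 (1.58) and on day 21 (1.62) nearly met. Of the 9 tested member probes, 2 separated upward in this way, CD14 and the brighter VCAN probe, and 0 downward; of the 10307 tested probes with no missing value, 3.02% and 2.6% did. The group mean of CD14 was 0.64 ± 0.77 on day 7 and 2.23 ± 0.50 on day 21 (SD, n = 4).

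The log2 change of CD14 was 1.59 ± 0.45 (SE), with a 95% interval of 0.58 to 2.59 and a limma adjusted p of 0.392. Within cows it was 0.04, 1.32, 2.29 and 2.71 in cows 1 to 4. Cow 1 was the highest of the 4 on day 7 and the lowest on day 21, and the within-cow changes run in the reverse order of the day 7 levels, which are part of those changes. Within slides the change was 0.44 on slide 1 (day 21 of cow 1 against the mean of day 7 of cows 1 and 2), 2.29 on slide 3 and 2.71 on slide 4. With slide as a fixed block, a fit to which the day 21 array of cow 2 adds nothing, it was 1.68. CD14 passed in 1 of 22 other settings, the fit with array quality weights (2.19, limma adjusted p = 0.0166). That fit called 280 of all 10459 tested probes higher (2.68%) and 321 lower (3.07%), where the fit without weights called 0. It gave the arrays of cow 4, the cow with the largest change, weights of 2.54 and 3.47, and those of cow 1, with the smallest change, 0.357 and 0.361.

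**Figure D2:**
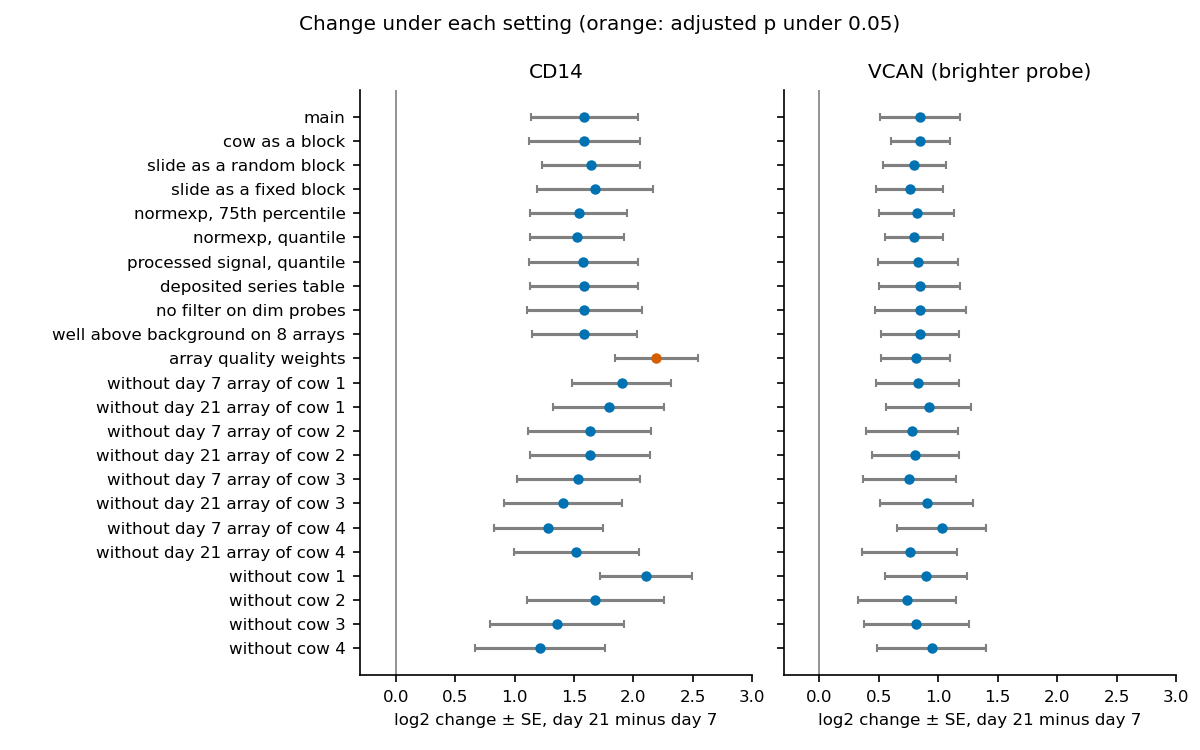
Log2 change, day 21 minus day 7, with its SE for CD14 (left) and the brighter VCAN probe (right) under the main fit and each other setting, 1 row per setting; orange points have an adjusted p under 0.05. CD14 ran from 1.22 to 2.19 and the VCAN probe from 0.74 to 1.03, and the one orange point is CD14 with array quality weights.

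VCAN encodes versican, a large chondroitin sulfate proteoglycan that binds hyaluronan and is one of the transcripts that separate classical monocytes from other leukocytes. Its brighter probe stood at 0.19, 0.05, -0.01 and 0.81 in cows 1 to 4 on day 7 and at 0.89, 1.23, 0.93 and 1.37 on day 21. The groups did not overlap here either: the lowest day 21 value, 0.89 in cow 1, was above the highest day 7 value, 0.81 in cow 4. The log2 change was 0.85 ± 0.34 (SE; limma adjusted p = 0.498), with a 95% interval of 0.10 to 1.59. Of the 9 tested probes it had the most even change across cows, 0.70, 1.19, 0.95 and 0.56, an SD of 0.28 against 1.19 for CD14.

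The dimmer VCAN probe gave another picture. It stood at -0.27, -1.33, 0.28 and -0.82 on day 7 and at -0.60, -2.53, 0.91 and -0.20 on day 21, with the groups overlapping throughout. It was lower on day 21 in cows 1 and 2 (-0.34 and -1.19) and higher in cows 3 and 4 (0.63 and 0.62). The fitted change of -0.07 ± 0.67 changes sign with the setting: it was 0.57 without the day 21 array of cow 2 and -0.58 without that of cow 3. Both probes were well above background on all 8 arrays. The brighter probe was named by its accession, the dimmer one only from its description. In which transcripts of VCAN either sequence lies was not tested, and the direction of VCAN depends on which probe is read.

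**Figure D3:**
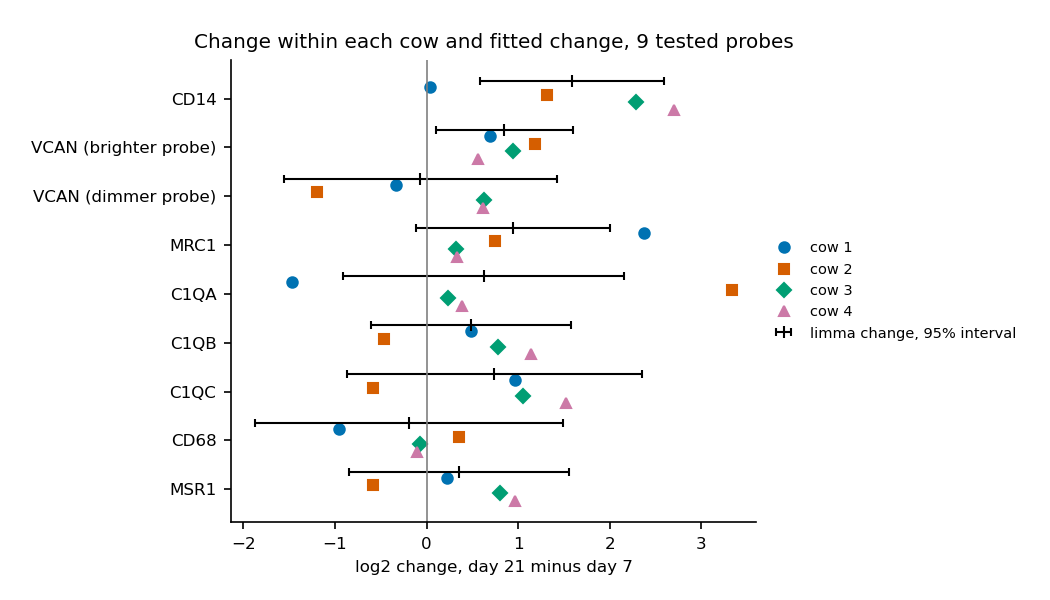
Log2 change, day 21 minus day 7, of the 9 tested probes (rows): coloured points are the 4 cows and black bars the limma change with its 95% interval. The intervals of CD14 and the brighter VCAN probe lie above 0 before adjustment over all probes; the other 7 include 0.

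MRC1 is the macrophage mannose receptor, a lectin that takes up glycoproteins and microbes. Its probe, named from the description of an expressed sequence tag, stood at -2.68, -2.85, -1.96 and -2.69 on day 7 and at -0.30, -2.10, -1.64 and -2.36 on day 21. The groups overlapped, and the day 21 array of cow 1 stood far above the rest. The change was 2.37 in cow 1 and 0.75, 0.32 and 0.33 in cows 2 to 4. The fitted change was 0.94 ± 0.48 (SE; limma adjusted p = 0.583), and leaving out cow 1 it was 0.47. CD14, VCAN by its brighter probe and MRC1 were higher in 4 of 4 cows, that is 3 of 8 genes. Over all 5029 tested genes 813 were so, and of the 10307 tested probes with no missing value 1596 were (15.5%). None of the members was lower in 4 of 4 cows, against 658 of 5029 genes and 1479 of those 10307 probes (14.3%).

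MSR1, a class A scavenger receptor for modified lipoproteins and bacteria, stood at -2.79, -3.94, -2.93 and -3.76 on day 7. On day 21 it stood at -2.56, -4.52, -2.13 and -2.80. It was higher in cows 1, 3 and 4 (by 0.22, 0.80 and 0.96) and lower in cow 2 (-0.58), and the groups overlapped. The fitted change of 0.35 ± 0.54 (SE; limma adjusted p = 0.872) was within its error.

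CD36, the class B scavenger receptor for oxidised lipoproteins, fatty acids and thrombospondin, was not well above background on any array of day 7 and was so on 2 of 4 on day 21, those of cows 3 and 4. It was therefore not tested. On 3 of the 4 day 7 arrays its processed signal was the surrogate the scanner software writes for a signal near background. Its measured means of -7.91 on day 7 and -6.80 on day 21 were both below the level that the dimmest well-measured probes reached on the day 7 arrays, -5.72 on average. No fold change is given for it.

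The 3 chains of C1q, C1QA, C1QB and C1QC, assemble together into the molecule that recognises antibody complexes and dying cells, and macrophages are a main source of it. In the RefSeq table their genes neighbour each other on 1 chromosome, with 1 other gene starting between C1QB and C1QC and 0 between C1QC and C1QA. C1QB stood at 1.83, 0.74, 1.13 and 0.76 on day 7 and at 2.31, 0.27, 1.91 and 1.90 on day 21. C1QC stood at 0.07, -1.75, -0.80 and -2.08 on day 7 and at 1.04, -2.33, 0.26 and -0.56 on day 21. Both were higher on day 21 in cows 1, 3 and 4 and lower in cow 2, and both groups overlapped. The changes were 0.48, -0.47, 0.78 and 1.15 for C1QB and 0.97, -0.58, 1.06 and 1.52 for C1QC in cows 1 to 4.

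The fitted changes were 0.48 ± 0.49 for C1QB (SE; limma adjusted p = 0.790) and 0.74 ± 0.73 for C1QC (0.780), and their 95% intervals ran from -0.60 to 1.57 and from -0.87 to 2.35. The day 21 array of cow 2, the one array alone on its slide, held the lowest value of C1QB, and also of C1QC, MSR1 and the dimmer VCAN probe. Without it the changes were 0.93 for C1QB, 1.39 for C1QC, 0.86 for MSR1 and 0.57 for that VCAN probe; none passed. Leaving out certain other arrays moved MSR1 downward: it was 0.06 with day 21 of cow 3 left out, the lowest of these fits, 0.16 with day 7 of cow 2 left out and 0.15 with both days of cow 4 left out. Without the day 21 array of cow 1, the highest for both C1q probes, they were 0.25 for C1QB and 0.26 for C1QC. On that array of cow 2 CD14 and the brighter VCAN probe were not low, at 2.08 and 1.23.

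The C1QB and C1QC profiles were each the closest to the other among all genes compared. Over the 8 arrays, which come from 4 cows and are not independent, Pearson's r was 0.96, and 0 of the other genes of 4946 tested reached that value with either of them. MSR1 had r of 0.92 with C1QB and 0.91 with C1QC. As close to C1QB as MSR1 was were 2 other genes, C1QC among them, and as close to C1QC were 11, C1QB among them. The dimmer VCAN probe had r of 0.91 with MSR1 and -0.19 with the brighter probe of its own gene. At that r of 0.91 or above, 49 other genes were as close to this VCAN probe, and 14 to MSR1. These are descriptions of how probes shared their ups and downs over the 8 arrays. How much of this goes with day, cow or slide was not tested. The r of CD14 with C1QB and C1QC was 0.47 and 0.45.

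**Figure D4:**
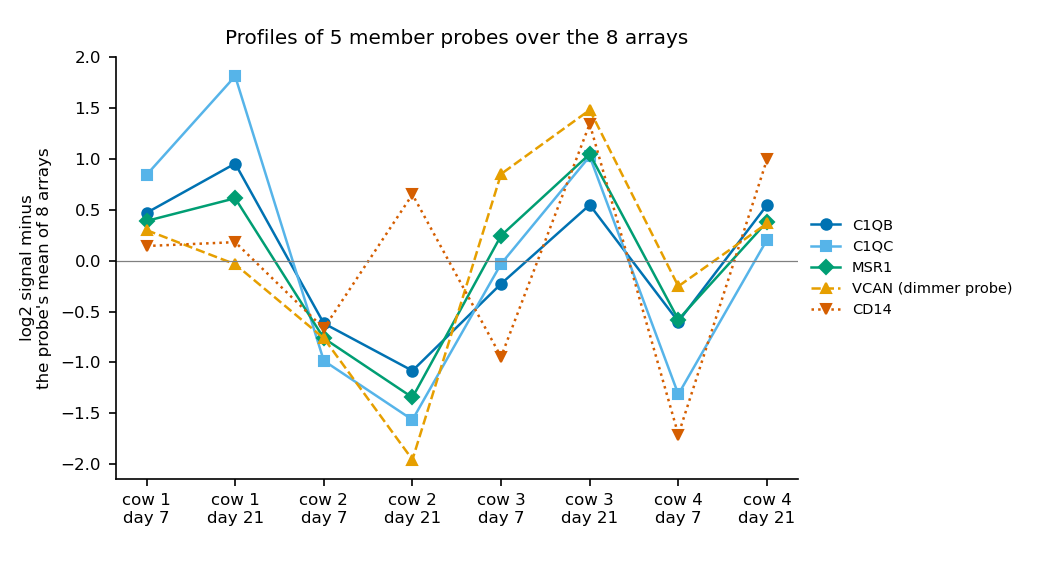
Log2 signal minus the probe's own mean over the 8 arrays (vertical axis) for C1QB, C1QC, MSR1, the dimmer VCAN probe and CD14, with the arrays ordered by cow and day. The first 4 probes dip together on the day 21 array of cow 2, where CD14 is above its mean.

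C1QA, the third chain, did not share this profile, with r of -0.12 with C1QB and -0.07 with C1QC. It was close to background: 1 array of day 7 (cow 3) and 3 of day 21 (cows 2 to 4) were well above it, and 2 of day 7 (cows 2 and 4) held surrogates. Its values were -6.00, -8.22, -5.51 and -6.63 on day 7 and -7.47, -4.89, -5.28 and -6.24 on day 21. The fitted change of 0.62 ± 0.69 (SE; limma adjusted p = 0.807) rested on cow 2, where it was 3.34, measured from a surrogate, and it was -0.28 when that cow was left out. After normexp background correction it was 0.05.

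CD68, a lysosomal and endosomal glycoprotein of macrophages that other phagocytes also carry, was the member with a negative fitted change. Its values were -0.58, 0.79, 1.97 and 1.19 on day 7 and -1.53, 1.15, 1.90 and 1.08 on day 21. Cow 1 was lowest and cow 3 highest on both days, and the groups overlapped. The within-cow changes were -0.95, 0.35, -0.07 and -0.11, and the fitted change was -0.19 ± 0.76 (SE; limma adjusted p = 0.953). Its sign was opposite to that of C1QB, C1QC and MSR1 in each of the 4 cows, and the fitted change was 0.53 when day 21 of cow 1 was left out. Its probe is the one with AATAAA only on the opposite strand; the strand of the probe relative to its gene was not tested.

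Over the 8 tested genes, counting VCAN by its brighter probe, 7 were higher and 1 was lower. Among the higher genes, C1QA met the filter with 1 array of day 7 and 3 of day 21, and its change was -0.28 without cow 2. The median log2 change was 0.68, against 0.08 over all 5029 tested genes, of which 55.6% were higher. The median was above 0 in 4 of 4 cows, at 0.35, 0.55, 0.79 and 0.76. With the day 7 array of cow 2 left out the fitted median was 0.45, and with the day 21 array of cow 3 left out 0.46. Asking for all 8 arrays well above background, which leaves out C1QA, gave 0.74. The choice of genes was made with earlier results of these arrays known, so these counts describe the genes and are no independent evidence of a direction. The signals of the 8 genes, summed as multiples of the array's 75th percentile, were 6.64 to 9.72 on day 7 and 10.5 to 18.0 on day 21, a sum in which the brightest probes weigh most.

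Other markers of monocytes and macrophages lay on both sides of 0. Of 20 such genes 12 had a probe and 10 were tested, of which 5 were higher and 5 lower, with a median log2 change of 0.05. CD86, a costimulatory ligand of antigen-presenting cells, had a change of 1.90 ± 0.49 and was higher in 4 of 4 cows, by 1.51, 1.93, 1.49 and 2.68, but did not pass (limma adjusted p = 0.350). CD80, its partner ligand, gave -0.73 ± 0.50. FCGR1A, the high-affinity receptor for IgG, and GPNMB had probes that were too dim to test. MHC class II genes were higher in 5 of 5 tested, with a median of 0.19. BOLA-DMA, which loads peptides onto class II molecules, gave 0.66 ± 0.33, and BOLA-DRB3 gave 0.76 ± 0.85.

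Among partners of CD14 in sensing lipopolysaccharide, 5 of 9 tested genes were higher and 4 lower, with a median of 0.02. LY96, the subunit of the TLR4 complex that binds the lipid, gave -1.32 ± 0.49 (SE; limma adjusted p = 0.492) and was lower in 4 of 4 cows, with log2 changes of -0.92, -3.15, -0.66 and -0.56. TRAF6, the ubiquitin ligase downstream of the receptor, gave 0.86 ± 0.48 and was higher in 4 of 4. CD14 and LY96 thus had fitted changes of opposite sign; neither passed. LBP, which delivers lipopolysaccharide to CD14, was too dim to test.

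Of the genes around C1q, 4 of 7 tested were higher, with a median of 0.47. C1R, a protease of the C1 complex, gave 0.89 ± 0.54 and was higher in 4 of 4 cows, and C2, which the complex cleaves, gave 0.87 ± 0.63 and was higher in 3 of 4. The genes around CD36 and lipid uptake were higher in 6 of 6 tested, against 55.6% of all 5029 tested genes, with a median of 0.70. Their changes ran from 0.04 to 2.00. Among these, THBS1, which encodes the CD36 ligand thrombospondin, gave 2.00 ± 0.78 (limma adjusted p = 0.497), with -1.04 in cow 1 and 2.50 to 3.98 in the others. PPARG, a lipid-sensing nuclear receptor that activates CD36, gave 0.73 ± 0.38 and was higher in 4 of 4 cows. In these lists no gene passed.

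Of other scavenger and lectin receptors, 3 of 14 could be tested and were higher (median 0.26); CXCL16, a chemokine that also acts as a scavenger receptor, gave 1.45 ± 0.86, with 4.15 in cow 2 and 0.15 to 0.99 in the others. CLEC7A, the beta-glucan receptor, gave 0.26 ± 0.47. In the versican and hyaluronan list, 2 of 4 tested were higher and 2 lower (median 0.04). TNFAIP6, which links hyaluronan chains, gave -2.13 ± 1.08, of which cow 1 held -5.72, and HAS3 gave 0.20 ± 0.33. In the CSF1R list 3 of 14 were tested (median -0.04), with CSF2, the granulocyte-macrophage growth factor, at 2.19 ± 1.27, well above background on 5 of 8 arrays, and RUNX1, a haematopoietic transcription factor, at -0.19 ± 0.39.

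**Figure D5:**
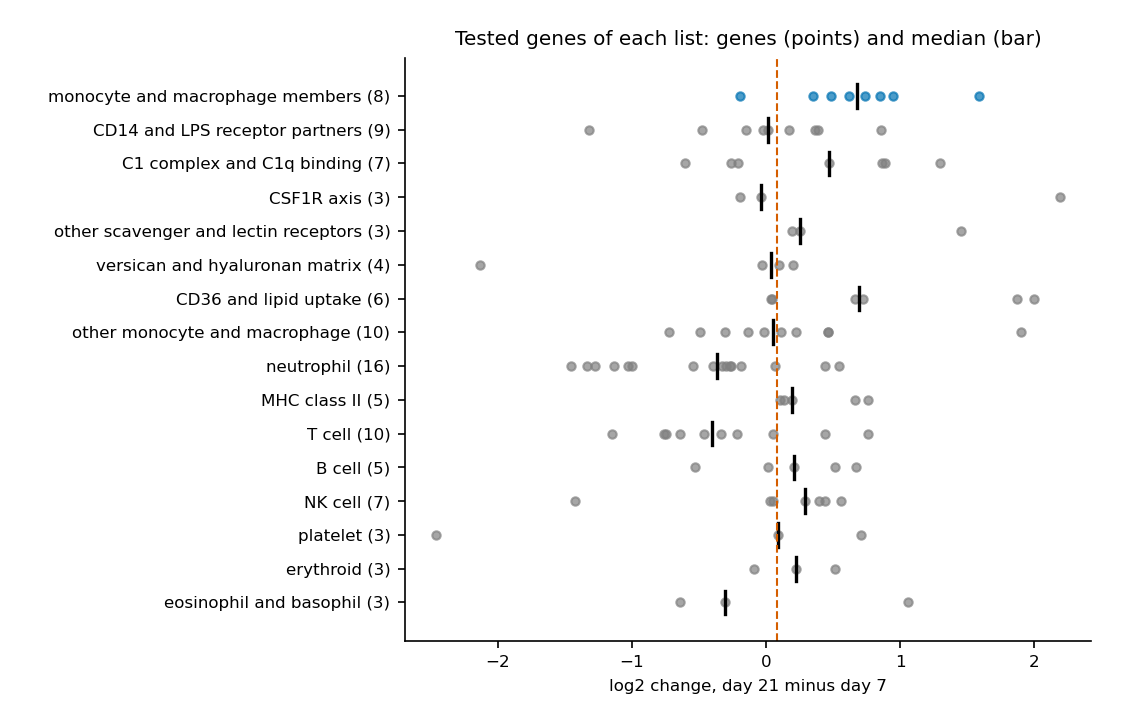
Log2 change, day 21 minus day 7, of each tested gene (points) and the median (black bar) in 16 gene lists, with the number tested in brackets; the dashed orange line is the median of all tested genes, 0.08. The members have a median of 0.68, the neutrophil list -0.36 and the T cell list -0.40.

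Markers of other blood cells are given beside these values. Of 16 tested neutrophil genes 3 were higher and 13 lower, with a median of -0.36 and medians of -0.73, -0.54, 0.00 and -0.11 in cows 1 to 4. Their summed signal was 251.2 to 309.9 on day 7 and 128.8 to 298.9 on day 21. PGLYRP1, a granule protein that binds bacterial cell walls, gave -1.45 ± 0.35 and FCGR2B, an inhibitory IgG receptor, -1.33 ± 0.44, each lower in 4 of 4 cows. Of 10 tested T cell genes 3 were higher and 7 lower (median -0.40), with summed signals of 21.2 to 36.3 and 21.8 to 24.9; CD2, an adhesion receptor of T cells, gave -1.15 ± 0.51 and CD5 0.76 ± 0.48. Their part in the changes of CD14, VCAN and the other members was not tested.

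The other lists were small. B cell genes were higher in 4 of 5 tested (median 0.21, CD79A 0.51 ± 0.32, BLK -0.53 ± 0.36), and NK cell genes in 6 of 7 (median 0.29, NCR1 -1.43 ± 0.91, KLRD1 0.56 ± 0.55). Platelet genes were higher in 2 of 3 (median 0.09), with P2RY12, the ADP receptor, at -2.46 ± 0.45 and ITGB3 at 0.71 ± 0.55. Erythroid genes were higher in 2 of 3 (median 0.22, ALAS2 0.51 ± 0.42, AHSP 0.22 ± 0.35), and eosinophil and basophil genes in 1 of 3 (median -0.30, HDC 1.06 ± 0.47, CCR3 -0.64 ± 0.91). No gene of these lists passed with limma.

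The genes whose profile was most like that of CD14 over the 8 arrays, by Pearson's r among 4946 others, were DHDH (0.97), PML (0.96), CNEP1R1 (0.95), LOC515169 (0.95) and ERH (0.95). All had a negative change in cow 1, from -0.57 to -0.15, and positive changes in cows 2 to 4. None of them is a member. The member closest to CD14 was VCAN by its brighter probe, with r of 0.57, and 528 other genes were as close or closer.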

How the data were processed

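Granulocyte RNA of 4 cows was read on 8 Agilent arrays with 1 dye, Cy3. The spot intensity values were made by the authors with Agilent Feature Extraction 9.5 (submitters' processing notes). The processed signal, per the file headers, is background-subtracted and detrended, with a surrogate near background and no step between arrays. The deposited series table holds log2 values; within 0.00485 they are the log2 processed signals shifted by a constant for each array. Its column medians are -3.53 to -3.29, and why the constants differ from the 75th percentile, by -0.0162 to -0.00711, is unknown. The other columns of use were flags, per the file headers.

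Here log2 processed signal minus the array's 75th percentile over all 15208 probes was used. Outlier spots were left out; probes marked well above background on 4 or more of 8 arrays were tested. Probes were named through a RefSeq gene table (ARS-UCD2.0, names and gene order only) by accession (2514), gene identifier (2013), gene name (1589) or description (1019). Where a gene had several tested probes, the brightest stood for it in counts. Groups were compared with limma 3.58.1 in R 4.3.3 with no block, adjusted by Benjamini-Hochberg over 10459 probes. The fit was first checked on simulated arrays with independent noise of a common SD and changes larger than that of any member. That check does not cover changes of the members' size, or correlation within cow or slide.

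Named were every member probe, the 2 genes of smallest p in each of 15 other lists, the 5 genes most like CD14, and dim genes or cell markers used to check a label. The members and lists were chosen with earlier results of these data known. Same-numbered samples come from the same cow, per the labels' source names. Their deviations from the group means correlated at 0.17 to 0.75, those of different cows at -0.47 to 0.30. Cows 1, 3 and 4, each with both arrays on 1 slide, gave 0.48, 0.75 and 0.44. Cow 2, on different slides, gave 0.17, below the 0.30 of cow 2 on day 7 with cow 1 on day 21, both on slide 1. These values cannot check the pairing, because cow and slide largely coincide. Alternatives were a cow block, slide blocks, other background corrections and normalizations, the deposited table, other filters, array weights, and leaving out arrays or cows.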

Additional observations from a re-analysis of the deposited data

How the results depend on the processing

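With limma, 0 member probes were called higher in 21 of 22 alternatives and 1, CD14, with array quality weights, a fit that called 280 of all 10459 probes higher and 321 lower; 0 member probes were called lower in all 22. The replicate block, with cow as a factor, changed no call. CD14 then had a limma adjusted p of 0.186 and the brighter VCAN probe 0.184. In that fit C1QC was 0.74 ± 0.39 (SE), C1QB 0.48 ± 0.33, MSR1 0.35 ± 0.33 and C1QA 0.62 ± 0.72. CD14, the brighter VCAN probe, MRC1, C1QB, C1QC and MSR1 kept a positive change in all 22 alternatives. The median change of the member genes, 0.68, was 0.92 with a fixed slide block and 0.45 to 0.89 when an array or a cow was left out; it was lowest without the day 7 array of cow 2 (0.45) and the day 21 array of cow 3 (0.46) and highest without the day 21 array of cow 2 (0.89). The dimmer VCAN probe turned positive with slide as a random block (0.15), slide as a fixed block (0.45), normexp with the 75th percentile (0.024) and array quality weights (0.44), and ran from -0.58 to 0.57 when arrays or cows were left out. In such fits C1QA ran from -0.28 to 1.32 and CD68 from -0.67 to 0.53. The causes were not tested. C1QA has no value where all 8 arrays had to be above background. With no filter on dim probes the median change of all probes was -0.12 in place of 0.07. Signal over background limits CD36 and C1QA.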
